A study of Mus musculus with 12 samples.

Results

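The KDM5 demethylase family of the mouse has 4 genes, *Kdm5a*, *Kdm5b*, *Kdm5c* and *Kdm5d*, and all 4 were taken by name from the 22911 genes whose counts were deposited for epiblast-like cells (EpiLCs) without functional *Kdm5c*. KDM5 proteins remove methyl groups from trimethylated and dimethylated lysine 4 of histone H3, a mark of active promoters. They do so through a Jumonji-C (JmjC) domain that holds an iron ion. *Kdm5c* on the X chromosome and *Kdm5d* on the Y chromosome descend from a common ancestral gene, and *Kdm5c* is known to escape X-inactivation, whereas *Kdm5a* and *Kdm5b* are autosomal.

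RNA-Seq was performed on 12 libraries, 3 for each of 4 groups of EpiLCs. The female controls were *Kdm5c* fl/fl (fWT), the female mutants *Kdm5c* Δ/Δ (fKO), the male controls *Kdm5c* fl/Y (mWT) and the male mutants *Kdm5c* Δ/Y (mKO), and the labels name their genotypes by the older gene name *Smcx*. Control cells carry loxP sites around part of *Kdm5c*, and Cre recombination had removed exons 11 and 12 in the mutants. The labels give C57BL/6J as the strain, whereas the methods describe the floxed strain as made on a mixed background. EpiLCs model the early post-implantation epiblast and were made in all groups by culturing embryonic stem cells (ESCs), 3 independent lines per genotype, for 48 h with FGF2 and Activin A, so a difference between groups is also a difference between sets of cell lines.

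Group means over 3 libraries were deposited, and they allowed the read numbers of the single libraries to be solved. Dividing the reads of a gene by the size factor of the library, a measure of its depth, gives the normalized count used here. Within a group the libraries carry the letters A, B and C, from the largest factor to the smallest, and the letters match no line or replicate number. Between 5516216 and 11092731 reads were recovered per library. Over all genes, mWT library B and mKO library A stood furthest from the other libraries of their groups (median absolute log2 distance 0.224 and 0.252, against 0.0752 to 0.157 in the other 10). The summed count of 6 epiblast markers was 9206 to 9452 in fWT and 12782 to 13278 in fKO. It was 10136 to 17317 in mWT and 7554 to 11199 in mKO. All 6 were expressed in every group. In females 3 of the 6 rose and 2 fell, where 27.8% of all genes passed as higher and 27.2% as lower (limma). In males 0 rose and 3 fell, where 4.78% passed as higher and 4.02% as lower (limma). The mean of *Otx2* went from 1363 in mWT to 408 in mKO and that of *Pou3f1* from 1015 to 386, while *Sox2* went from 1653 to 2073. The 6 naive ESC markers summed to 3455 to 3568 in fWT and 3707 to 3900.3 in fKO, and to 3511 to 4433 in mWT and 6413 to 7057 in mKO. In females 5 of these rose, where 27.8% of all genes passed as higher (limma). *Esrrb* went from a mean of 237 to 981, for instance, and *Nanog* fell from 2813 to 1505. In males 4 rose, where 4.78% of all genes passed as higher, and 0 fell (limma). Among the male risers was *Zfp42*, from 472 to 1169. The 3 trophoblast markers, almost all of it *Tfap2c*, summed to 105 to 113 in fWT, 211 to 234 in fKO, 111 to 203 in mWT and 462 to 711 in mKO. The endoderm list summed to 431 to 480 in fWT and 3561 to 3712 in fKO, to 1769 to 2509 in mWT and 536 to 2401 in mKO, with mKO library A at the low end. The 4 fibroblast or feeder markers, most of it *Col1a1* and *Col1a2*, summed to 2192 to 2253 in fWT, 737 to 802 in fKO, 533 to 815 in mWT and 4078 to 4546 in mKO. The means of *Thy1* were 67.1, 56.8, 69.1 and 58.1 in fWT, fKO, mWT and mKO, and those of *Col3a1* 95.5, 91.6, 70.4 and 231. The part that these cell types have in the results was not tested, and in bulk RNA a change in the number of cells of a type and a change in RNA per cell cannot be told apart.

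The deletion takes away 2 iron-binding residues that the 4 genes share. In the mm9 annotation *Kdm5c* lies at chrX:148667563-148709078 on the + strand, and its transcript Kdm5c-001 has 26 exons. The 2 lost exons are printed below because they are what separates the groups, 5′ to 3′ on the + strand. Capitals show the codons of 2 residues that take part in binding iron, a histidine (codon 514) and a glutamate (codon 516). Exon 11 covers chrX:148687967-148688148 (182 bp) and exon 12 covers chrX:148688242-148688404 (163 bp).
*Kdm5c* exon 11: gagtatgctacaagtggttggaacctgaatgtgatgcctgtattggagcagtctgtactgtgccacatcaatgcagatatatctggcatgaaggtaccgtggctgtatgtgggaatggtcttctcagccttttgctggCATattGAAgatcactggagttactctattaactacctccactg
*Kdm5c* exon 12: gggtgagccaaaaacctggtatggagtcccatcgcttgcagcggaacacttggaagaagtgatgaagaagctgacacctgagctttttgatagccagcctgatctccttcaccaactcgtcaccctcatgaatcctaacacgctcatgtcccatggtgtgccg

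With these 345 bp gone, exon 10 would join exon 13 in frame, with 1436 codons and 0 stop codons inside. The join is shown with the last bases of exon 10 in lower case and the first bases of exon 13 in capitals.
*Kdm5c* exon 10 to 13: accccagaggaggagGTTGTCCGCACAAAC
The lost exons make up 5.35% of Kdm5c-001. RNA from the mutant allele is therefore still counted, on the exons that remain, and a count over the whole gene is no measure of intact *Kdm5c* RNA. Reads within exons were not analysed here.

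The same stretch of the paralogs shows how close the remaining family members are to what was lost. The 33 bases around these 2 iron-binding codons are given for each gene, with the 2 codons in capitals.
*Kdm5a*, codons 483 and 485: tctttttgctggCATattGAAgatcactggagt
*Kdm5b*, codons 499 and 501: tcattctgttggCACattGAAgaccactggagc
*Kdm5c*, codons 514 and 516: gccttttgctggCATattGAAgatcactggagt
*Kdm5d*, codons 513 and 515: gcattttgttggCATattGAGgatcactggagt
From *Kdm5c*, *Kdm5a* differed at 2 of these bases, *Kdm5d* at 3 and *Kdm5b* at 7. The 2 codons in capitals encode the same residues in all 4 genes, and iron binding outside this stretch was not compared. Over the 115 codons of exons 11 and 12, *Kdm5d* had the same residue as *Kdm5c* at 110 positions (95.7%), *Kdm5a* at 100 (87.0%) and *Kdm5b* at 96 (83.5%). Over the whole coding sequence, *Kdm5c* and *Kdm5d* shared 78.9% of aligned residues, *Kdm5c* and *Kdm5a* 55.3%, and *Kdm5c* and *Kdm5b* 50.5%. Reads within single exons were nevertheless separable, since no exonic window of 50 bp of any member came within 1 mismatch of another member. Exons shorter than 50 bp and reads across exon junctions were not compared.

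The other members were placed on mm9 as well. *Kdm5a* lies at chr6:120314117-120394592 and its first 276 bp overlap *Ccdc77* on the opposite strand, so reads there cannot be assigned without knowing whether the counting used strand, which is not given in the sources used here. *Kdm5b* lies at chr1:136456748-136529454 and *Kdm5d* at chrY:234231-280254. Of the exonic windows of 50 bp, 98.8% in *Kdm5a*, 99.8% in *Kdm5b* and in *Kdm5c*, and 81.1% in *Kdm5d* occur once in mm9. The 795 repeated windows of *Kdm5d* all have a copy on an unplaced contig, and since only uniquely mapped reads were kept, the level of *Kdm5d* may be understated relative to the other members if that contig was in the index.

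*Kdm5c* itself, the targeted gene, fell in the female mutants, and its smaller difference in the male mutants did not pass the test. Its normalized counts were 2336, 2429 and 2315 in fWT libraries A, B and C, and 1406, 1447 and 1505 in fKO libraries A, B and C. The 3 mutant female libraries lay below all 3 controls, at 2359.7 ± 60.7 (SD, n = 3) against 1453 ± 49.7 (SD, n = 3), so the mean decreased by 38.4%. The log2 fold change was -0.70 (standard error 0.053, 95% CI -0.81 to -0.59, adjusted p = 6.52e-09 from limma over 17783 genes). In this comparison 55.0% of all genes tested passed the same threshold, an adjusted p below 0.05, and in 60.2% the groups did not overlap, so that passing it does not set a gene apart in females.

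In males, the count of *Kdm5c* was 2195, 2110.1 and 2371 in mWT libraries A, B and C, and 1897, 1943 and 1976 in mKO libraries A, B and C. The groups again did not overlap, as held for 28.9% of genes in males. The means were 2226 ± 133 and 1938 ± 39.7 (SD, n = 3 each), a decrease by 12.9%. The lost exons, 5.35% of Kdm5c-001, give no reads in mutants, and their part in this decrease was not tested. The log2 fold change of -0.20 (standard error 0.10, 95% CI -0.43 to 0.033) did not pass the test across genes (limma adjusted p = 0.252). In males 8.80% of 20068 genes did. Both exact permutation tests, two-sided, gave p = 0.10, which is the smallest that 3 libraries against 3 allow.

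The difference between the sexes was tested directly. The male log2 fold change exceeded the female one by 0.50 (standard error 0.10, 95% CI 0.28 to 0.72, adjusted p = 0.00283 from the limma interaction term), a term for which 25.6% of 19056 genes passed. It kept its direction and passed when any library was left out (0.46 to 0.55). Ordered by level, *Kdm5c* was highest in fWT, followed by mWT, mKO and fKO. The fWT and mWT libraries overlapped, while mWT and mKO did not, and neither did mKO and fKO (exact permutation test, two-sided, p = 0.10, against 42.7% of all genes without overlap between mKO and fKO).

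**Figure D1:**
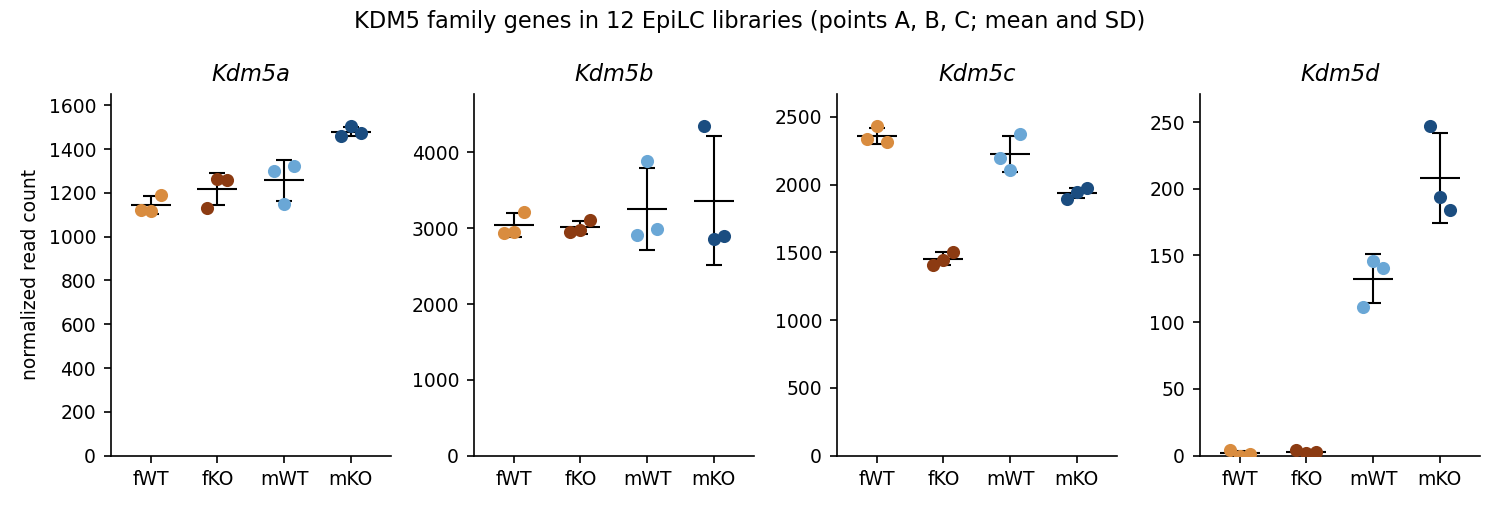
Normalized read count (y axis, from 0, a scale for each gene) of the KDM5 genes in the 4 groups (x axis), with a point for each of the libraries A, B and C, from left to right, and the mean and SD in black. *Kdm5c* is lowest in fKO, *Kdm5d* is close to 0 in females and higher in mKO than in mWT, and *Kdm5b* is set apart by mWT library B and mKO library A.

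*Kdm5d*, the Y-linked paralog, encodes the demethylase closest in sequence to the one lost. It had higher counts in the male mutants, without passing the test across genes. It had 112, 141 and 98 reads in mWT libraries A, B and C, and 304, 191 and 178 reads in mKO libraries A, B and C. As normalized counts these are 112, 146 and 141 in mWT and 247, 194 and 184 in mKO. Every mutant male library lay above every control, where 28.9% of all genes had no overlap between the male groups. The mean of *Kdm5d* went from 133 ± 18.4 to 208 ± 33.7 (SD, n = 3 each), which is 56.8% higher.

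On the log2 scale the difference in *Kdm5d* was 0.64 (standard error 0.19, 95% CI 0.22 to 1.06). It missed the threshold across genes (limma, unadjusted p = 0.00684, adjusted p = 0.0646), and the exact permutation test, two-sided, gave p = 0.10. Without mKO library A, where the count was highest, the difference was 0.51 (limma adjusted p = 0.0585). With each male library left out in turn it was 0.51 to 0.72 and never passed (limma adjusted p 0.0504 to 0.235). The female libraries had 0 to 4 reads on *Kdm5d* in fWT and 2 to 5 in fKO, which sets the level of stray reads in cells without a Y chromosome. A library with 0 reads still allows 3.

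*Kdm5a*, an autosomal member first known as a partner of the retinoblastoma protein, was slightly higher in the mutants of both sexes without passing the test in either. In females its counts were 1121, 1119 and 1189.5 in fWT libraries A, B and C, and 1132, 1261 and 1260.2 in fKO libraries A, B and C. The groups overlapped, since fKO library A lay within the range of the controls. The log2 fold change was 0.09 (standard error 0.060, 95% CI -0.04 to 0.22, adjusted p = 0.221 from limma), so an increase by more than 0.22 lies outside the interval.

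In males, *Kdm5a* was at 1300.1, 1149 and 1322 in mWT libraries A, B and C, and at 1461, 1503 and 1475 in mKO libraries A, B and C. All 3 mutant libraries were above all controls, where 28.9% of all genes had no overlap between the male groups. The mean of *Kdm5a* was 17.7% higher (1257 ± 94.5 in mWT against 1479.7 ± 21.6 in mKO, SD, n = 3 each). The log2 fold change was 0.24 (standard error 0.11, 95% CI -0.0021 to 0.48, limma adjusted p = 0.195), and the exact permutation test, two-sided, gave p = 0.10. The male change did not differ detectably from the female change (difference 0.15, 95% CI -0.10 to 0.39, limma adjusted p = 0.365). *Ccdc77*, which shares the 276 bp at the start of *Kdm5a*, moved the other way (log2 fold change -0.20 in females, adjusted p = 0.0382, and -0.56 in males, adjusted p = 0.0372, limma).

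*Kdm5b*, the autosomal member known for high expression in ESCs, had the highest level of the family and no detectable difference between mutants and controls. In females the counts were 2943, 2949 and 3220 in fWT libraries A, B and C, and 2949.7, 2981 and 3109 in fKO libraries A, B and C. The log2 fold change was -0.01 (standard error 0.054, 95% CI -0.12 to 0.10, limma adjusted p = 0.884). The libraries of both groups overlapped, and the interval reaches no further than 0.10 above 0.

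In males the spread was wider. *Kdm5b* was at 2906, 3881 and 2986 in mWT libraries A, B and C, and at 4343, 2857 and 2894 in mKO libraries A, B and C. The high value of each group is in the library that stands apart from its group over all genes, and in the same 2 libraries the epiblast marker sum was high, at 17317 in mWT library B against 10136 and 10463, and at 11199 in mKO library A against 7629 and 7554. The part of that in the *Kdm5b* values was not tested. The log2 fold change of 0.03 (standard error 0.18, 95% CI -0.38 to 0.45, limma adjusted p = 0.927) leaves room for changes of either sign, and it was -0.17 without mKO library A, 0.16 without mWT library B and -0.03 (95% CI -0.14 to 0.07) without both.

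With mWT library B and mKO library A left out, a choice made after the values were seen, the changes of the male *Kdm5* genes were of similar size but their errors were smaller. *Kdm5c* then passed the test at -0.22 (95% CI -0.36 to -0.08, limma adjusted p = 0.0224). *Kdm5d* passed at 0.59 (95% CI 0.24 to 0.93, adjusted p = 0.0192) and *Kdm5a* at 0.18 (95% CI 0.061 to 0.31, adjusted p = 0.0284). In that fit of 2 libraries against 2, 45.2% of all genes passed, so these calls do not single out the family. The controls that remain in it, mWT libraries A and C, had reads on more genes (20805 and 20400) than any other library (17191 to 17783), mWT library B included. The whole-table fit and this one differ in the calls, not in the directions, for these 3 genes.

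**Figure D2:**
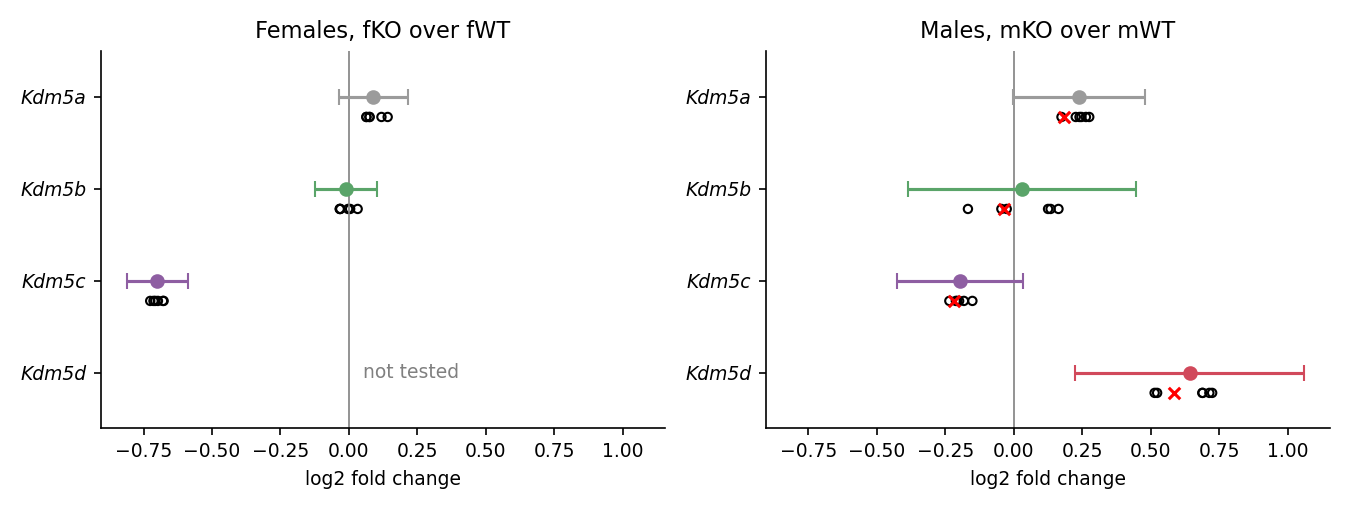
Log2 fold change of the KDM5 genes (x axis) in females (left) and males (right), with filled points and bars for the limma estimate and its 95% CI, open circles for fits without each library in turn, and red crosses for the male fit without mWT library B and mKO library A. *Kdm5c* in females is the estimate whose interval lies furthest from 0, and the open circles of *Kdm5b* in males fall on both sides of 0.

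Before comparing members with each other, counts were divided by the length of the exons of each gene, to give normalized reads per kb of exon. The full exon length of *Kdm5c* was used for the mutants too, although they lack 345 bp of it. In mWT, where all 4 genes could be measured, the order was *Kdm5b* at 420 ± 69.7, *Kdm5c* at 313 ± 18.7, *Kdm5a* at 88.6 ± 6.66 and *Kdm5d* at 24.2 ± 3.36 per kb (SD, n = 3 each). The lowest *Kdm5b* library, at 375 per kb, lay above the highest *Kdm5c* library, at 334 per kb, so that the order holds in every mWT library. The order was the same in the other 3 groups, with *Kdm5d* at 0.312 per kb in fWT and 0.524 per kb in fKO.

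The summed level of the family per kb was 804 ± 18.7 in fWT and 679 ± 21.8 in fKO, and 846 ± 55.1 in mWT and 848 ± 109 in mKO (SD, n = 3 each). The female groups did not overlap in this sum (788 to 824 against 658 to 702), as held for 60.2% of single genes in females. The male groups did overlap (795 to 904 against 783 to 974). In fKO and mKO the *Kdm5c* part of the sum is RNA of the mutant allele, so the sum is no measure of intact family RNA. In females *Kdm5c* supplied 41.3% ± 1.64 of the sum in fWT and 30.1% ± 0.0639 in fKO, while the share of *Kdm5b* was 48.7% ± 1.48 and 57.2% ± 0.50. In males the share of *Kdm5c* was 37.2% ± 3.80 in mWT and 32.5% ± 4.45 in mKO, ranges that overlapped.

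*Kdm5d* remained a small component of the family. Per kb, it reached 7.74% of the level of *Kdm5c* in mWT (6.59 to 8.95% over the libraries) and 13.9% in mKO (12.1 to 16.8%). *Kdm5c* and *Kdm5d* together were at 332 ± 8.32 per kb in fWT and 337 ± 19.2 per kb in mWT, and at 205 ± 6.92 in fKO and 311 ± 1.74 in mKO (SD, n = 3 each). In fKO and mKO the *Kdm5c* part is again RNA of the mutant allele.

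**Figure D3:**
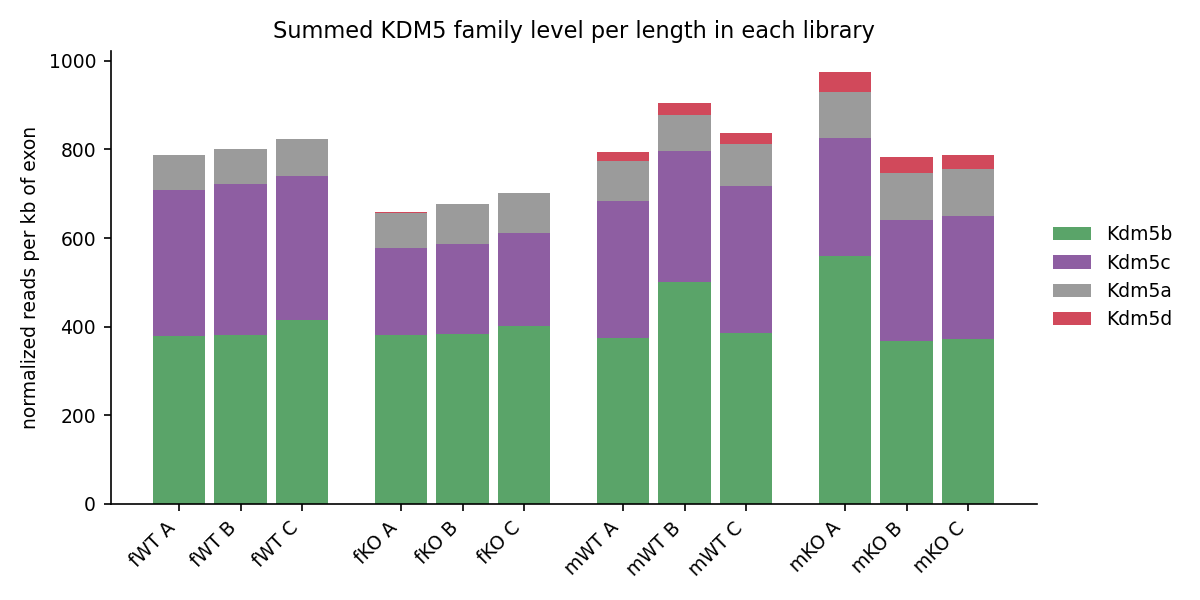
Normalized reads per kb of exon (y axis, from 0), stacked by KDM5 gene, in each of the 12 libraries (x axis). The fKO stacks are the lowest because the *Kdm5c* part is smaller, *Kdm5d* appears only as a thin layer in males, and the tallest stacks are mWT library B and mKO library A, through *Kdm5b*.

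Control females and control males were compared next, since a gene that escapes X-inactivation can be expressed from both X chromosomes in females. *Kdm5c* was 6.03% higher in fWT than in mWT, with overlapping libraries (log2 difference 0.09, standard error 0.073, 95% CI -0.07 to 0.24, limma adjusted p = 0.400, exact permutation test, two-sided, p = 0.30). *Kdm5a* differed by -0.13 (95% CI -0.31 to 0.04, adjusted p = 0.228) and *Kdm5b* by -0.09 (95% CI -0.40 to 0.22, adjusted p = 0.677, limma). None of these 3 genes passed, against 24.9% of 19056 genes that did and 41.2% whose groups did not overlap, and 0 of the 3 had an unadjusted p below 0.05 or passed with limma voom. Without mWT library B, *Kdm5a* was lower in fWT by 0.20 on the log2 scale (limma adjusted p = 0.0344).

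The X-linked genes of X-Y pairs, with *Kdm5c* itself on the list, put this value into context. Of 9 such genes 8 were tested, and 5 were higher in fWT than in mWT, none lower, where 11.7% of all genes passed as higher and 13.2% as lower (limma; 5 and 0 at an unadjusted p below 0.05, and 5 and 0 with limma voom). These were *Uba1*, which encodes a ubiquitin-activating enzyme, at 0.77 (standard error 0.084, adjusted p = 3.1e-05), the demethylase gene *Kdm6a* at 0.46 (standard error 0.10, adjusted p = 0.00545), *Zfx* at 0.45, the translation factor gene *Eif2s3x* at 0.42 and the deubiquitinase gene *Usp9x* at 0.41. The median difference of the 8 genes, *Kdm5c* included, was 0.43. It was -0.08 over all genes tested and 0.05 over those that averaged 100 or more. Whether X-linked genes outside the pairs differ as much was not tested. *Kdm5c*, *Sox3* and *Rbmx* did not pass, and *Ddx3x* was too abundant for its reads to be recovered in every library (authors' group means 12650 in fWT and 8784 in mWT).

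The X-linked pair genes were also compared between mutants and controls. In females 2 of 8 rose and 4 fell, where 27.8% of all genes passed as higher and 27.2% as lower. The median was -0.21, beside 0.00 (-0.0018) over all genes and 0.03 over those that averaged 100 or more. Besides *Kdm5c*, *Sox3* fell by 1.14 on the log2 scale, *Uba1* by 0.43 and *Rbmx* by 0.33, while *Zfx* rose by 0.32 and *Usp9x* by 0.14 (limma adjusted p from 4.3e-08 to 0.0261). In males 2 of 8 rose, where 4.78% of all genes passed as higher, and 0 fell, where 4.02% passed as lower (1 at an unadjusted p below 0.05, 0 with limma voom). The risers were *Zfx*, a zinc-finger transcription factor gene, at 0.98 (standard error 0.11, adjusted p = 0.00204) and *Usp9x* at 0.42 (standard error 0.10, adjusted p = 0.0370, limma). Without mWT library B and mKO library A, 3 of the 8 rose and 3 fell in males, *Kdm5c* among the latter, where 18.5% of all genes passed as higher and 26.7% as lower. *Xist*, the X-linked RNA that starts X-inactivation and gave the study its question, was at 1341 ± 84.9 in fWT, 264 ± 26.0 in fKO, 410.1 ± 139.5 in mWT and 233 ± 69.9 in mKO (SD, n = 3 each). Its log2 fold change was -2.34 in females (adjusted p = 1.4e-13) and -0.79 in males (adjusted p = 0.127, limma). The use of strand in counting is not given, and the part of the antisense RNA *Tsix* in these counts was not tested.

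The Y-linked genes of these pairs did not move as a block in mutant males, so *Kdm5d* is described beside them. Of 10 such genes, 8 were tested, *Sry* and *Rbmy* being at 0 reads in all 6 male libraries. *Zfy1*, a zinc-finger gene that lies before *Kdm5d*, went from 26.9, 28.9 and 37.4 in mWT libraries A, B and C to 53.6, 82.1 and 79.6 in mKO. It rose by 1.17 (standard error 0.28, limma adjusted p = 0.0373), although not with limma voom, where 0 of the 8 rose. *Usp9y* went from 34.9, 46.5 and 53.2 to 4.87, 5.07 and 5.17, and fell by 2.91 (standard error 0.37, limma adjusted p = 0.00296). These 2 of 8 stand beside 8.80% of all genes that passed in males.

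The remaining Y-linked genes did not pass. *Zfy2* was at 13.7 ± 2.50 in mWT and 21.1 ± 4.23 in mKO, without overlap, as held for 28.9% of genes in males. *Ddx3y* was at 654 ± 90.7 and 754 ± 144, *Uty* at 553 ± 76.0 and 512 ± 140, *Eif2s3y* at 656 ± 87.6 and 549.9 ± 107, and *Uba1y* at 359 ± 122 and 247 ± 14.8 (SD, n = 3 each), all with overlapping libraries. The median log2 fold change of the 8 genes was 0.03 in males, beside -0.12 over all 20068 genes tested and 0.02 over the 9701 of them that averaged 100 or more. In mKO library A *Kdm5d*, *Uty*, *Ddx3y* and *Eif2s3y* were each higher than in mKO libraries B and C, whereas *Zfy1* and *Zfy2* were lower there. Without mWT library B and mKO library A, 2 of the 8 passed as higher (*Kdm5d* and *Zfy1*) and 4 as lower (*Usp9y*, *Uty*, *Eif2s3y* and *Uba1y*), where 18.5% of all genes passed as higher and 26.7% as lower.

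**Figure D4:**
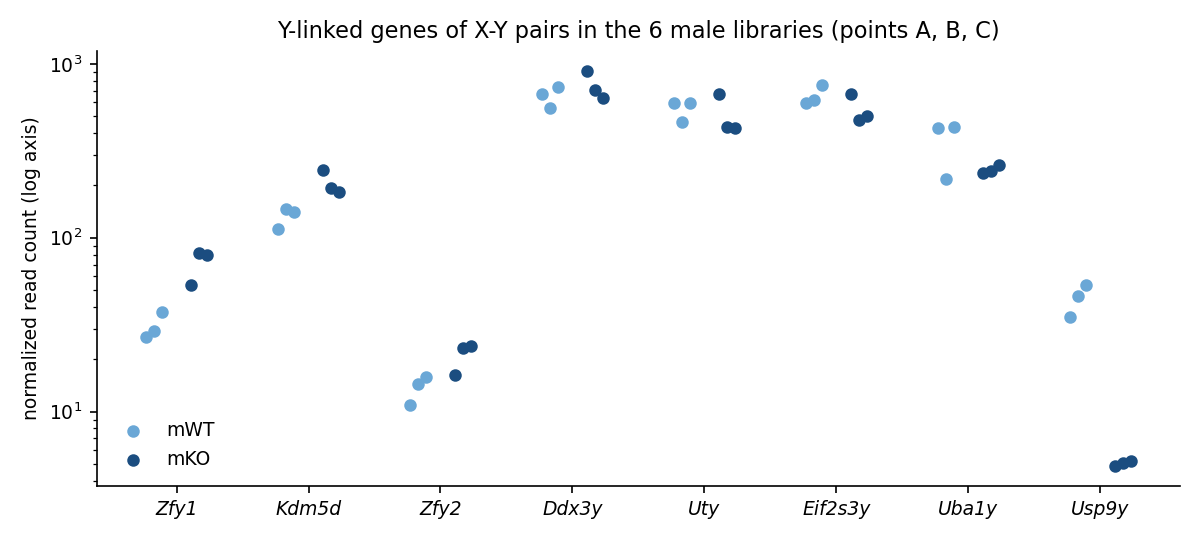
Normalized read count (y axis, log scale) of 8 Y-linked genes of X-Y pairs (x axis) in male control and mutant EpiLCs, with a point for each of the libraries A, B and C from left to right. *Kdm5d*, *Zfy1* and *Zfy2* are higher in all mKO than in all mWT libraries, *Usp9y* is lower in all of them, and the other 4 genes overlap between the groups.

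The neighbours of each member on its chromosome were also examined. Beside *Kdm5c*, *Iqsec2* (7.78 kb before it) fell by 0.56, *2900056M20Rik* (23.97 kb after it) by 0.39, *Tspyl2* by 0.36 and *Smc1a* by 0.23 in females. These 4 of the 6 neighbours passed, all as lower (limma adjusted p 0.00146 to 0.00963), where 27.2% of all genes passed as lower and 55.0% in either direction. *Ribc1* and *3010001F23Rik* did not pass. In males 0 of the 6 neighbours of *Kdm5c* passed (limma adjusted p 0.139 to 0.954, 1 at an unadjusted p below 0.05, 0 with limma voom), where 8.80% of all genes did. Of the 4 neighbours of *Kdm5d* tested in males, *Zfy1* before it (100.4 kb) rose, as given above, and *Eif2s3y*, *Uty* and *Ddx3y* after it (66.7, 153 and 317 kb) did not pass. Neighbours were placed by gene name, so a nearer gene that the annotation lists under another name may be missing. *Klhl12*, 69.2 kb before *Kdm5b*, rose in both sexes (0.47 and 0.57, limma adjusted p = 1.3e-05 and 0.0226) and *Ube2t*, 330 kb after it, fell in both (by 0.67 and 0.59, adjusted p = 1.18e-06 and 0.0416, the latter 0.0516 with limma voom), with *Kdm5b* between them at -0.01 and 0.03. In females *4931440L10Rik* (by 1.75) and *Rabif* (by 0.25) also rose before *Kdm5b* and *Ppp1r12b* fell by 0.38 after it, so that 5 of its 6 neighbours passed, *Syt2* being the exception. Around *Kdm5a*, 3 of 6 passed in females, with *B4galnt3* rising by 0.91, *Cecr5* falling and *Ccdc77* as given above, while *Ninj2*, *Il17ra* and *Cecr6* did not pass, and in males only *Ccdc77* did (limma).

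KDM5 proteins act within larger repressor assemblies, and 28 genes of such complexes were taken as a list. Among them are *Rest*, *Hdac1* and *Hdac2* with the methyltransferase genes *Ehmt1* and *Ehmt2*, found with KDM5C, the PRC1.6 genes *Pcgf6*, *E2f6*, *L3mbtl2*, *Mga* and *Max*, and the Sin3 genes that accompany KDM5A. All 28 were tested. In females 10 rose and 6 fell (limma), a share of 57.1% called beside 55.0% of all genes. The female median was 0.11, beside 0.00 (-0.0018) over all genes and 0.03 over those that averaged 100 or more. In males 2 rose and 0 fell, a share of 7.14% beside 8.80% of all genes (2 fell at an unadjusted p below 0.05, 0 with limma voom). The male median was 0.01, beside -0.12 over all genes and 0.02 over those that averaged 100 or more. Without mWT library B and mKO library A, 10 rose and 7 fell in males, beside 45.2% of all genes called.

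The complexes did not move as units. Of the PRC1.6 genes in females, *Max* rose by 0.54, *Mga* by 0.41 and *L3mbtl2* by 0.34, while *Pcgf6* at 0.12 and *E2f6* at -0.02 did not pass (limma adjusted p = 0.119 and 0.868). *Hdac1* rose by 0.32 and its paralog *Hdac2* fell by 0.46, and of the methyltransferase genes *Ehmt2* fell by 0.40 and *Ehmt1* was at -0.07 (adjusted p = 0.282). *Rest*, the repressor of neuronal genes, fell by 0.19 in females (standard error 0.052, adjusted p = 0.0054) and was at -0.21 in males (standard error 0.14, adjusted p = 0.350, limma).

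The largest changes among these 28 genes in females were those of *Rbpj*, the DNA-binding protein of Notch signalling with which KDM5A has been described, and *Tfap2c*, a transcription factor gene linked to KDM5B and also a trophoblast and naive-state gene. *Rbpj* rose by 1.08 (standard error 0.049) and *Tfap2c* by 1.06 (standard error 0.099), and *Mta1* fell by 0.87 (standard error 0.061). Of the other genes that passed, *Brms1* rose by 0.79, *Phf12* by 0.60, *2210018M11Rik* by 0.23 and *Cbx3* by 0.19, while *Rbbp7* fell by 0.29 and *Gatad1* by 0.26 (limma). *Tfap2c* also rose in males, by 1.89 (standard error 0.27, adjusted p = 0.00471), as did *Sin3b*, by 0.72 (standard error 0.13, adjusted p = 0.0143, limma). *Rbpj* was at 0.23 in males (adjusted p = 0.511, limma).

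**Figure D5:**
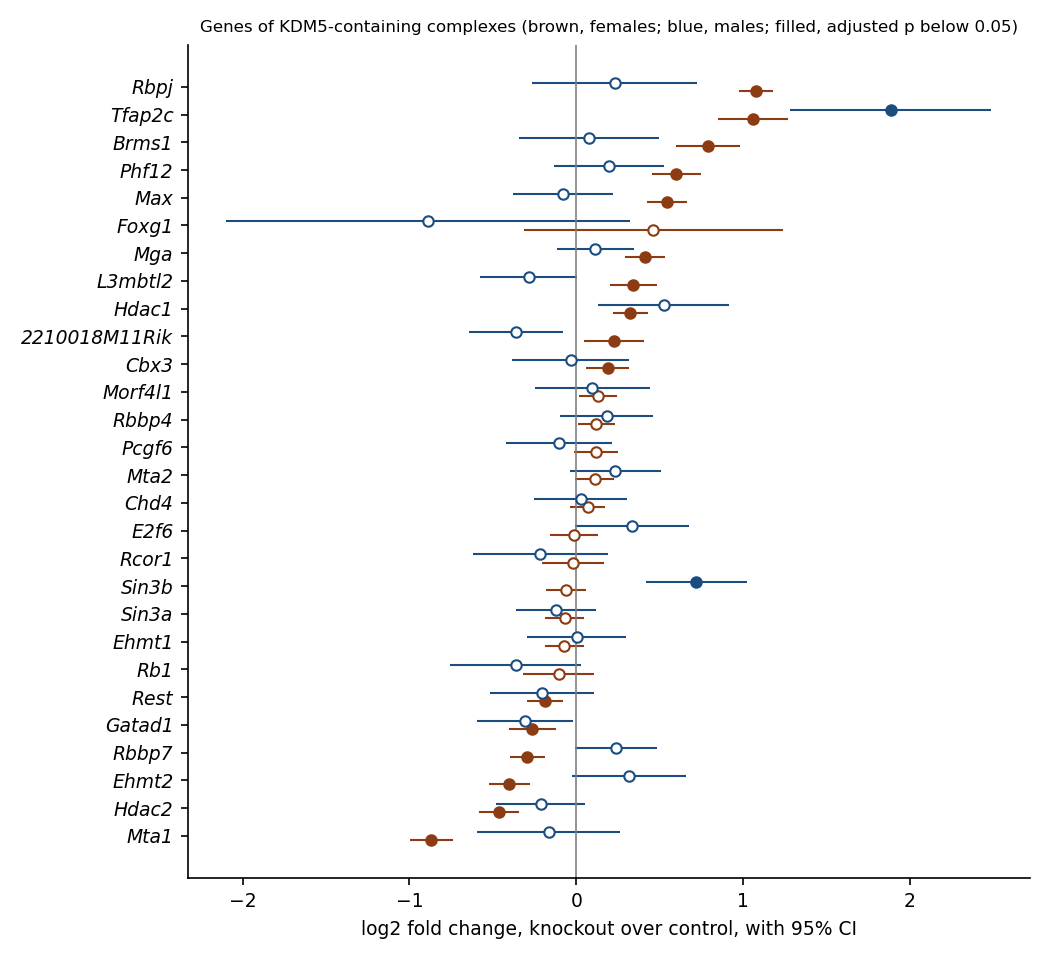
Log2 fold change, mutant over control, with 95% CI (x axis) of 28 genes of KDM5-containing complexes (y axis, ordered by the female value) in females (brown) and males (blue), with filled points for an adjusted p below 0.05 from limma. Filled points lie on both sides of 0 in females (10 higher, 6 lower), and in males *Tfap2c* and *Sin3b* are filled.

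Finally, the genes whose log2 counts ran most like those of each member over the 12 libraries were listed, out of 9700 genes that averaged 100 or more (for *Kdm5d*, out of 14131 that averaged 10 or more). The libraries share their groups, so these values describe and test nothing. For *Kdm5c* they were *Ptpru* (Pearson r = 0.98), *Egln3* (r = 0.98) and *Map3k4* (r = 0.98). *Egln3*, an oxygen-sensing prolyl hydroxylase gene, was at 2015 ± 85.8 in fWT, 272 ± 12.02 in fKO, 1434 ± 336 in mWT and 1089 ± 102 in mKO (SD, n = 3 each), which is the order of *Kdm5c* with a far deeper trough in fKO. For *Kdm5a* they were *Usp32* (r = 0.95), *Sgol2* (r = 0.94) and *Dync1li2* (r = 0.94), and for *Kdm5b* *Epb4.1l4a* (r = 0.88), *Elp2* (r = 0.88) and *Klf13* (r = 0.86). For *Kdm5d*, absent in females, *Zfy1* (r = 0.98), *Eif2s3y* (r = 0.97) and *Cdh3* (r = 0.97) came first. Among the members, *Kdm5a* and *Kdm5d* ran most alike (r = 0.72), with *Kdm5d* near 0 in the 6 female libraries and *Kdm5a* highest in mKO. The value was 0.33 between *Kdm5b* and *Kdm5d*, 0.18 between *Kdm5c* and *Kdm5d*, 0.09 between *Kdm5a* and *Kdm5b*, -0.08 between *Kdm5a* and *Kdm5c* and 0.02 between *Kdm5b* and *Kdm5c*.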

How the data were processed

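RNA-Seq of 12 EpiLC samples was analysed, 3 per genotype and sex. According to the submitters' processing notes and the methods, single-end 50 bp reads were aligned by the authors against mm9 (TopHat2 2.1.0, Bowtie2 2.2.6.0), with at most 1 mismatch. They kept reads with a unique position. The gene annotation and the use of strand are not given in the sources used here. The signal columns that the authors deposited, in 2 tables of 22911 genes, are group means of normalized counts. The tables also hold the authors' fold changes and p-values, which were not used.

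Each mean is an average of 3 whole read numbers, each divided by a size factor. The 3 steps were found from low genes, and the reads were solved for genes whose mean did not exceed 10000, each with exactly 1 solution. Left out were 51 to 77 genes per group, leaving 22808 genes in all 12 libraries and 86.0 to 91.4% of normalized reads. The size factors (0.696 to 1.28) equalled 0.988 to 0.999 of those that the median-of-ratios method gives over all 12 libraries, so the sexes share 1 normalization. The solver and the test were tested on simulated data. mWT libraries A and C had reads on 20805 and 20400 genes, against 17191 to 17783 in the other 10. Reads are not independent molecules, so depth covers counting error only.

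Limma 3.58.1 (R 4.3.3) was run on log2-transformed normalized counts (pseudocount 1) with its trend option, for genes with a mean above 0.5, within each sex, and over 12 libraries for the interaction and for fWT against mWT. Fold changes are on that scale. Adjusted p-values are Benjamini-Hochberg over all genes tested, with a threshold of 0.05. Single values were compared by exact permutation tests, two-sided. Error terms stem from the spread between libraries, said to be separate ESC lines. Alternatives were a pseudocount of 0.1, a minimum mean of 10, limma voom, other size factors, and fits without each library. Gene models and sequences came from mm9 (NCBIM37) with GENCODE vM1, and levels per kb used the union of exons. Protein identities were computed from translated coding sequences, whose letters are not printed.

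The members and gene lists were chosen with earlier results of these data known. Named are the 4 members, genes of X-Y pairs and of KDM5 complexes that passed or are Y-linked, the 3 genes most like each member, and *Xist*. Also named are the nearest genes tested that could be placed by name, up to 3 on each side of each member. Other genes of the lists are named to complete a complex. *2210018M11Rik* is the tables' name of *Emsy*. Scripts ran under Python 3.11.15 with numba 0.67.0, numpy 2.4.6, scipy 1.17.1 and pandas 2.3.3.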

Additional observations from a re-analysis of the deposited data

Results flagged for a closer look

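The change from controls to mutants differed between the sexes, by the limma interaction term, for 1 member and for 12 genes of the lists. Each value is the log2 fold change in males less that in females, and for *Kdm5c* it was 0.50, as given above. Among X-linked genes of X-Y pairs it was 0.66 for *Zfx*, which rose in both sexes and more in males, and 0.60 for *Uba1*, which fell in females. The Y-linked *Usp9y* also passed (-3.20), but with 0 or 1 read in each female library this is its fall in males set against cells without a Y chromosome. Among the genes of KDM5 complexes it was positive for *Sin3b* (0.78), *Ehmt2* (0.72), *Mta1* (0.70) and *Rbbp7* (0.53). It was negative for *Rbpj* (-0.85), *Brms1* (-0.71), *L3mbtl2* (-0.63), *Max* (-0.62) and *2210018M11Rik* (-0.59). Of the 28 complex genes 9 thus passed (32.1%), where 25.6% of all genes did, and why they differed was not tested.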

How the results depend on the processing

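The fall of *Kdm5c* in females passed in all 11 alternatives (-0.73 to -0.68), and so did its difference between the sexes in all 18 (0.46 to 0.55). The other calls of the members held except as follows. *Kdm5b*, near 0 throughout, changed sign in some fits: its male log2 fold change was -0.00035 with upper-quartile factors and -0.17 to 0.16 when a library was left out, its female one -0.033 to 0.032, its difference between the sexes -0.16 to 0.17, and its difference between fWT and mWT -0.17 to 0.043. *Kdm5a* in fWT against mWT was -0.20 to -0.10 and passed without mWT library B. When a library was left out, the number of genes that passed was 352 to 4407 in males (4343 without mWT library B and 4407 without mKO library A, against 352 to 589 without any other) and 3038 to 7425 between fWT and mWT. With both of those libraries left out, 9340 genes passed in males, 9376 in the interaction and 10044 between fWT and mWT. *Kdm5a* (0.18), *Kdm5c* (-0.22) and *Kdm5d* (0.59) then passed in males and *Kdm5b* was at -0.035, the difference of *Kdm5b* between the sexes was -0.024, and fWT differed from mWT by -0.20 in *Kdm5a* (passing) and 0.043 in *Kdm5b*. Fewer libraries with less spread make up that fit, and it was chosen after seeing the data. Per kb of the longest transcript, in place of all exons, *Kdm5b* was at 517, *Kdm5c* at 345, *Kdm5a* at 115 and *Kdm5d* at 24.3 in mWT, in the same order.

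No paired analysis was possible because the deposited columns are group means, and the reads worked out from them carry no replicate number. Depth limits *Kdm5d* most, at 98 to 304 reads per male library. With 3 libraries a group the exact test cannot go below 0.10, and a change of moderate size in males can be missed.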
